A study of Homo sapiens with 4 samples.

Results

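The 10 genes described here encode CD147 (BSG), its relatives embigin (EMB) and neuroplastin (NPTN), the lactate and pyruvate carriers MCT1, MCT4 and MCT2 (SLC16A1, SLC16A3 and SLC16A7), the cyclophilins A and B (PPIA and PPIB), and the CD98 complex of SLC3A2 and SLC7A5. They were listed by name, for their known ties to CD147, and are 10 of the 58735 genes counted. By the labels, RNA-seq came from MHCC-97H, an established metastatic HCC line, with 1 library per condition and 4 libraries in all. Cells labelled wild type had been given PBS or 2 μg of migrasomes (Migs), which migrating cells leave behind on their retraction fibres, for 24 h. The Migs came from MHCC-97H cells in normoxia (normo-Migs), from MHCC-97H cells kept in hypoxia (hypo-Migs), or from CD147-knockout MHCC-97H cells also kept in hypoxia (CD147KO-Migs). The knockout was therefore in the cells that gave the Migs, and BSG reads in the recipient cells are no check of it. The oxygen and glucose used for these batches of Migs are not given in the sources used here.

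CD147 is a surface glycoprotein of the immunoglobulin superfamily that escorts MCT1 and MCT4 to the plasma membrane and holds them there. Embigin and neuroplastin do the same for MCT carriers, MCT2 among them. MCT1 and MCT2 carry lactate and pyruvate along their gradients, whereas MCT4 is known as the carrier of lactate export from glycolytic cells. Secreted cyclophilins A and B are ligands of CD147, and CD147 is found at the surface in a complex with CD98, the heavy chain that brings the amino acid transporter LAT1 (SLC7A5) to the membrane.

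Reads on genes numbered between 33882496 and 40285223 per library. The library labelled PBS stood apart from the others. In it, 3 reads or fewer were found on 251 genes that had 100 or more in every other library, whereas for each Mig library the number of such genes was 0. Summed marker levels were lower in it too, but some single markers went the other way. CDH5 had 84 reads with PBS and 30, 72 and 59 with normo-Migs, hypo-Migs and CD147KO-Migs. In the same order SERPINA1 had 25, 2, 9 and 10, COL3A1 had 27, 14, 27 and 20, and VWF had 7, 0, 0 and 2. COL1A1 and PDGFRB made up most of the fibroblast sum, and FGB made up most of the hepatocyte sum with Migs. The summed level of 6 fibroblast markers was 23.7 CPM (reads scaled to a common total of reads on genes) with PBS and 157 to 167 with Migs, that of 4 simple epithelium markers was 4217 and 5508 to 6615, and that of 10 hepatocyte markers was 4.75 and 21.1 to 28.9. For 4 endothelium markers the sums were 3.16 and 4.28 to 5.54, and for 5 leukocyte markers 0.472 and 2.63 to 4.28. ALB, AFP, APOB and TTR, which define hepatocytes, were at 0 reads in all 4 libraries, so the label of liver cells was not borne out by them, while KRT8 and KRT18 were abundant. The part of these differences in the values given against PBS was not tested. That this library holds the same cells as the others rests on its label alone and was not tested either, so a rise or fall below is a difference from the library labelled PBS. In each comparison below the PBS library is shared, and with 1 library per condition a difference has no replicate check. Intervals are exact 95% Clopper-Pearson intervals on the split of reads between 2 libraries, and these intervals and the limit for a count of 0 (3 reads) cover counting error only. A gene is said to have risen or fallen when its change was at least 2-fold (absolute log2 of 1 or more), which is the fold criterion of the study, and no p-value is given.

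The start regions of BSG, SLC16A3 and SLC16A7 are shown because the first and the second were lower, and SLC16A7 higher, in the Mig libraries than with PBS. Each is the 250 bases before a RefSeq start site on GRCh38.p14, 5′ to 3′ on the plus strand, which is the coding strand of all of them. Capitals mark ACGTG, 1 form of the core of the hypoxia response element, searched on both strands. The other form, GCGTG, was neither searched nor marked. CACGTG holds ACGTG on both strands and counts as 2 overlapping matches. The windows are chr19:572346-572595 for BSG, where 6 of 10 coding transcripts start, chr17:82228792-82229041 for SLC16A3 and chr12:59595779-59596028 for SLC16A7. That of SLC16A3 was picked for its matches from 5 windows. The other windows of BSG, SLC16A3 and SLC16A7 hold none, among them chr17:82228185-82228434, which has as many coding transcripts (3 of 16).
BSG: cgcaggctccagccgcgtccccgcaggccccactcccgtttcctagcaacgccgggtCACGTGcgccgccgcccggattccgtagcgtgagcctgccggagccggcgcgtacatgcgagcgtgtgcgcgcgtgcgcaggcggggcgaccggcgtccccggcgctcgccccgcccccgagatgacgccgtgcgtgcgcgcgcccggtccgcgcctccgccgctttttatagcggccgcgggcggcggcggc
SLC16A3: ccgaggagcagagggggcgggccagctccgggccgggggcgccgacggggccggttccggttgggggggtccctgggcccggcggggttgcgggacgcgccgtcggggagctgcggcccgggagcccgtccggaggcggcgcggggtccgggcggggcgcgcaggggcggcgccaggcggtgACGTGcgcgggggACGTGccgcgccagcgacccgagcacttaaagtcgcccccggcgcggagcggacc
SLC16A7: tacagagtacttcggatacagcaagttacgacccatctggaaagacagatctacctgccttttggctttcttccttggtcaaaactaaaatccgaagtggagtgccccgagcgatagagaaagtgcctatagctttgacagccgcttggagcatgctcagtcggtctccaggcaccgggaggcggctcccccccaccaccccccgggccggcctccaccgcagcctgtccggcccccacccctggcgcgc
The BSG window holds 1 CACGTG, the SLC16A3 window holds 2 separate matches, and the SLC16A7 window holds none. RefSeq windows were given for 8 of the 10 genes, 16 windows in all, and 6 of the genes (BSG, NPTN, SLC16A3, PPIA, PPIB and SLC7A5) had a match in 1 window each. The motif is in 18.5% of all 35116 windows, and in 20.5% of the 7287 with a GC content of at least 70%. All 6 windows with a match were of that kind, and no other window of these genes was. A match is a description of the letters, not a bound site.

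The genes fell into 3 tiers by level (FPKM, reads scaled by gene length and library size). Gene length is that of all annotated exons joined, 3797 bases for BSG, 8995 for SLC16A3 and 13665 for SLC16A7. It can exceed the transcript made, so order, shares and ratios between genes are approximate. SLC7A5 (mean over the 4 libraries of 499.8 FPKM), PPIA (382.4), BSG (280.6) and SLC3A2 (161.2) were the highest. SLC16A3 (76.5), SLC16A1 (53.2), PPIB (51.4) and NPTN (29.3) followed, and EMB (2.36) and SLC16A7 (1.34) were the lowest. In reads not scaled by length, SLC16A7 lay above EMB in every Mig library. Of the neighbours in this order, SLC16A1 and PPIB overlapped in their ranges over the libraries. The ranges of all other neighbours were separate. The 10 genes held 0.763% of the reads on genes with PBS and 0.699% to 0.726% with Migs. After TMM scaling, the PBS library lay outside the range of the Mig libraries for 9 of them, all but PPIB, and for all 10 without the scaling factor. The largest ratio between any 2 Mig libraries was 1.13, for SLC16A7, and the smallest was 1.01, for PPIA.

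Against PBS, EMB fell and SLC16A7 rose with each of the Migs, so 2 of the 10 genes passed 2-fold in every comparison. Over all 19895 genes tested (at least 10 reads in 1 library), 29.9% passed it with normo-Migs, 30.5% under hypo-Migs and 30% under CD147KO-Migs. Because thinly counted genes pass more easily, the share was also taken over the 10234 well-counted genes, those averaging 300 reads or more over the libraries, a limit chosen after the data were seen, and was 13.7%, 14.3% and 14.2%. For 9 of the 10 genes, all but PPIB, the interval lay clear of 0 in each comparison with PBS after TMM scaling, beside 70.7%, 72.1% and 70.9% of all genes tested and 85.3%, 86.2% and 85.7% of well-counted genes. The median log2 fold change of the 10 genes was 0.08 with normo-Migs, 0.04 under hypo-Migs and 0.03 under CD147KO-Migs, and that of all genes was 0.03, 0.04 and 0.03.

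Between Mig libraries none of the 10 genes passed 2-fold. Of all genes tested, 9.39% did between hypo-Migs and normo-Migs, 9.13% between hypo-Migs and CD147KO-Migs, and 9.46% between CD147KO-Migs and normo-Migs. Over well-counted genes the shares were 0.0586%, 0.0586% and 0.0977%. The interval lay clear of 0 for 6, 5 and 5 of the 10 genes in these pairs, beside 34.9%, 35% and 34.5% of all genes tested and 43.1%, 42.7% and 42.4% of well-counted genes.

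BSG (chr19:571277-583493, plus strand) had 366.7 FPKM in the PBS library, 260.9 with normo-Migs, 241.4 under hypo-Migs and 253.4 under CD147KO-Migs, from 34021 to 48157 reads. The PBS library was the highest, and the Mig libraries lay close to each other. Its log2 fold change against PBS was -0.48 (95% interval -0.50 to -0.46) with normo-Migs, -0.59 (-0.61 to -0.57) under hypo-Migs and -0.52 (-0.54 to -0.50) under CD147KO-Migs, none of which reached 2-fold. Among well-counted genes, 40.4%, 32.4% and 37.6% had changes as large. In bulk samples, fewer cells with a transcript and less of it per cell cannot be told apart. The hypo-Migs library was lower than the normo-Migs library by a log2 fold change of -0.11 (-0.13 to -0.09) and lower than the CD147KO-Migs library by -0.07 (-0.09 to -0.05), differences as large as those of 35.5% and 53.3% of such genes. CD147KO-Migs and normo-Migs differed by -0.04 (-0.06 to -0.02). An antisense gene, AC009005.1, shares 140 of the 3797 exon bases of BSG and had 120 to 164 reads. The handling of strand in the counting is not given in the sources used here, so reads of overlapping genes may not be told apart.

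The other immunoglobulin-type escorts differed from BSG. EMB (chr5:50396192-50443248, minus strand) had 726 reads in the PBS library, 328 with normo-Migs, 395 under hypo-Migs and 333 under CD147KO-Migs, or 3.99, 1.82, 1.86 and 1.79 FPKM. It was highest with PBS and alike in the Mig libraries. EMB fell by 1.12 on the log2 scale with normo-Migs (interval -1.32 to -0.94), by 1.09 under hypo-Migs (-1.28 to -0.92) and by 1.14 under CD147KO-Migs (-1.34 to -0.96), so each interval also held smaller changes than 2-fold. NPTN (chr15:73560014-73634134, minus strand) had 27.8, 30.2, 29.5 and 29.8 FPKM in the same order. It was slightly higher in every Mig library, with log2 fold changes of 0.13, 0.10 and 0.11 that did not reach 2-fold. Between Mig libraries the intervals of EMB and of NPTN all held 0. For EMB the hypo-Migs to normo-Migs interval ran from -0.18 to 0.25, and for NPTN from -0.09 to 0.03.

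The balance among the escorts differed between PBS and Migs. Of the summed FPKM of BSG, NPTN and EMB, BSG took 92.0% in the PBS library, 89.1% with normo-Migs, 88.5% under hypo-Migs and 88.9% under CD147KO-Migs. The ratio of BSG to NPTN, per gene length, was 13.2 (12.8 to 13.6) in the PBS library, 8.65 (8.38 to 8.93) with normo-Migs, 8.18 (7.94 to 8.43) under hypo-Migs and 8.49 (8.22 to 8.77) under CD147KO-Migs. A ratio within a library does not depend on its scaling. PBS lay above the Mig libraries, whose intervals overlapped each other.

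Among the carriers, SLC16A3 was lower and SLC16A1 slightly higher with Migs than with PBS. SLC16A3 (chr17:82228397-82261129, plus strand), encoding MCT4, had 93.5 FPKM in the PBS library, 74.2 with normo-Migs, 66.1 under hypo-Migs and 72.2 under CD147KO-Migs. It was highest with PBS and lowest with hypo-Migs. The log2 fold changes against PBS were -0.32 (-0.35 to -0.30), -0.49 (-0.52 to -0.47) and -0.36 (-0.39 to -0.34), short of 2-fold. Hypo-Migs differed from normo-Migs by -0.17 (-0.19 to -0.14) and from CD147KO-Migs by -0.13 (-0.15 to -0.10), and 18.7% and 28.5% of well-counted genes differed as much. CSNK1D, on the opposite strand, shares 482 of the 8995 exon bases of SLC16A3 and had 4738 to 5963 reads.

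SLC16A1 (chr1:112911847-112957013, minus strand), encoding MCT1, had 49.4, 55.2, 53.6 and 54.7 FPKM in the order PBS, normo-Migs, hypo-Migs and CD147KO-Migs. PBS was the lowest by a small margin. Its log2 fold changes against PBS were 0.17 (0.13 to 0.21), 0.13 (0.09 to 0.17) and 0.16 (0.12 to 0.20). Between Mig libraries they were at most 0.04 in size. The antisense gene SLC16A1-AS1 shares 175 exon bases with it and had 515 to 665 reads.

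SLC16A7 (chr12:59596067-59789855, plus strand), encoding MCT2, was the lowest of the 10 genes in FPKM in each library, with 345 reads in the PBS library, 694 with normo-Migs, 921 under hypo-Migs and 719 under CD147KO-Migs, or 0.730, 1.48, 1.66 and 1.49 FPKM. PBS was the lowest and hypo-Migs the highest. SLC16A7 rose by a log2 fold change of 1.02 (0.84 to 1.22) with normo-Migs, 1.19 (1.02 to 1.38) under hypo-Migs and 1.03 (0.85 to 1.23) under CD147KO-Migs. The change with normo-Migs fell just short of 2-fold when libraries were scaled to their total reads without a factor, which left EMB as the only gene of the 10 past it in that comparison, a count of 1. Hypo-Migs exceeded normo-Migs by 0.17 (0.03 to 0.32) and CD147KO-Migs by 0.16 (0.02 to 0.30), which 17.8% and 20% of well-counted genes matched in size.

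The mix of carriers differed between PBS and Migs. The ratio of SLC16A3 to SLC16A1 per gene length was 1.89 (1.85 to 1.94) in the PBS library, 1.35 (1.31 to 1.38) with normo-Migs, 1.23 (1.21 to 1.26) under hypo-Migs and 1.32 (1.29 to 1.35) under CD147KO-Migs. Among Mig libraries, the hypo-Migs interval was below the other two. Of the summed FPKM of the 3 carriers, SLC16A3 took 65.1%, 56.7%, 54.5% and 56.2% in the order PBS, normo-Migs, hypo-Migs and CD147KO-Migs, and SLC16A1 took 34.4%, 42.1%, 44.2% and 42.6%. SLC16A7 took 0.508% with PBS and 1.13% to 1.37% with Migs.

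BSG kept a steadier ratio to SLC16A3 than to SLC16A1. BSG to SLC16A3 was 3.92 (3.87 to 3.98) in the PBS library, 3.51 (3.46 to 3.57) with normo-Migs, 3.65 (3.59 to 3.71) under hypo-Migs and 3.51 (3.45 to 3.57) under CD147KO-Migs. BSG to SLC16A1 was 7.43 (7.26 to 7.60), 4.73 (4.63 to 4.84), 4.50 (4.41 to 4.60) and 4.63 (4.53 to 4.74) in the same order. The escort had more reads than either carrier in each library, both per gene length and without that scaling.

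The ligands of CD147 varied little. PPIA (chr7:44796680-44824564, plus strand), encoding cyclophilin A, a peptidyl-prolyl isomerase, had 408.9 FPKM in the PBS library, 376.0 with normo-Migs, 371.6 under hypo-Migs and 373.0 under CD147KO-Migs. PBS was the highest, and its log2 fold changes were -0.11 (-0.13 to -0.10), -0.13 (-0.14 to -0.11) and -0.12 (-0.14 to -0.11). Its 88 pseudogenes held 668 to 811 reads in all, 1.13 to 1.29 per 100 reads on PPIA, and reads may have been split among these near copies. PPIB (chr15:64155812-64163205, minus strand), encoding the cyclophilin of the endoplasmic reticulum, had 52.1, 52.7, 50.9 and 49.7 FPKM, with log2 fold changes of 0.03 (-0.04 to 0.10), -0.02 (-0.09 to 0.04) and -0.06 (-0.13 to 0.01). After TMM scaling each of these intervals held 0. Under the other scalings tried, CD147KO-Migs lay below PBS beyond counting error, by log2 fold changes of -0.07 with DESeq2 size factors, -0.09 with total reads and -0.07 with protein-coding reads. CD147KO-Migs were lower than normo-Migs by -0.09 (-0.15 to -0.02) in log2 fold change. SNX22, on the opposite strand, shares 519 exon bases with PPIB, 27.2% of them, and had 56 to 81 reads. The ratio of PPIA to PPIB per gene length was 7.84 (7.58 to 8.12), 7.13 (6.89 to 7.38), 7.30 (7.07 to 7.54) and 7.51 (7.25 to 7.78).

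The 2 chains of the CD98 complex kept close to one ratio. SLC3A2 (chr11:62856102-62888875, plus strand), the heavy chain, had 146.7 FPKM in the PBS library, 163.9 with normo-Migs, 162.7 under hypo-Migs and 171.6 under CD147KO-Migs. SLC7A5 (chr16:87830023-87869488, minus strand), the LAT1 light chain that imports large neutral amino acids, had 455.8, 504.1, 510.9 and 528.4 FPKM. Both were lowest with PBS and highest with CD147KO-Migs. The log2 fold changes of SLC3A2 against PBS were 0.17 (0.15 to 0.19), 0.16 (0.14 to 0.18) and 0.24 (0.21 to 0.26), and those of SLC7A5 were 0.15 (0.14 to 0.17), 0.17 (0.16 to 0.19) and 0.22 (0.21 to 0.24), none of them 2-fold. Hypo-Migs lay below CD147KO-Migs by -0.08 (-0.10 to -0.06) for SLC3A2 and by -0.05 (-0.06 to -0.04) for SLC7A5 in log2 fold change. Of well-counted genes, 49.6% and 66.9% differed as much. The ratio of SLC7A5 to SLC3A2 was 3.11 (3.06 to 3.15), 3.07 (3.03 to 3.12), 3.14 (3.10 to 3.18) and 3.08 (3.04 to 3.12), with overlapping intervals between each Mig library and PBS.

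The genes whose pattern over the 4 libraries was most like that of BSG, out of 5946 protein-coding genes whose lowest library had 1000 reads or more, were HNRNPL, COQ8A, SH3BGRL3, CREBBP and MICAL3. The root-mean-square difference of their centred log2 levels from those of BSG was 0.0108 to 0.0146. HNRNPL had 51.7, 37.5, 34.1 and 35.9 FPKM in the order PBS, normo-Migs, hypo-Migs and CD147KO-Migs. The likeness rests on 4 libraries, of which 1 stands apart.

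Lists of related genes were followed in the same way, 76 genes of which 65 were tested. Against PBS, 17 passed 2-fold with normo-Migs, 17 under hypo-Migs and 17 under CD147KO-Migs, or 26.2% of those tested each time, near the share of all genes given above. In all 3 comparisons 10 of the 65 were higher and 5 lower, beside 14% and 7.1% of all genes tested, so these shares were near the background too. These comparisons share the PBS library, so the recurrence is not independent. Among the 10 higher genes, SLC16A9, SLC16A10, SLC16A14, MMP2 and MMP11 passed the filter on reads only through the Mig libraries.

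Among 9 tested genes of the wider MCT family and sodium-coupled lactate carriers, the same 4 rose with each of the Migs, and none fell, beside 18.1%, 18.9% and 18.1% of all genes tested that rose with normo-Migs, hypo-Migs and CD147KO-Migs. Of these, SLC16A9, SLC16A10 and SLC16A14 passed the filter on reads through the Mig libraries, where they were high, and so had to differ. SLC16A14, an orphan of the family, had 0 reads with PBS and 531, 590 and 461 with normo-Migs, hypo-Migs and CD147KO-Migs, which is at least 179-fold, 169-fold and 151-fold higher with the floor of 3 reads in the PBS library. SLC16A9 had 0, 243, 275 and 215 reads, at least 82.1-fold, 78.8-fold and 70.6-fold higher. SLC16A10, a carrier of aromatic amino acids, had 0, 77, 107 and 91 reads, at least 26.0-fold, 30.7-fold and 29.9-fold higher. None of these genes had a read in the PBS library, and their levels in the Mig libraries were close. SLC16A4 had 64, 216, 290 and 245 reads and rose by a log2 fold change of 1.74, 1.93 and 1.88. SLC16A6 and SLC16A5, the highest of this list, had 13.4 to 18.2 and 6.19 to 8.25 FPKM and did not pass 2-fold. The median log2 fold change of this list was 0.42, 0.73 and 0.79.

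Of 15 other cyclophilins, all tested, PPIC rose with all Migs (10.2, 27.2, 30.5 and 29.3 FPKM, log2 fold changes of 1.42, 1.59 and 1.53). PPIL6, named after its values were seen, fell with normo-Migs and CD147KO-Migs on 30 reads with PBS and 5, 18 and 4 with Migs. PPIF, the mitochondrial cyclophilin, and PPIL1, a part of the spliceosome, were the highest of the list at 37.9 to 65.3 and 26.4 to 28.1 FPKM and did not pass 2-fold. The median log2 fold change of the list was 0.05, -0.08 and -0.14.

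Of 10 tested amino acid transporters around CD98, SLC7A7, a light chain of the CD98 heavy chain for basic amino acids, rose with all Migs, on 14, 60, 121 and 132 reads in the order PBS, normo-Migs, hypo-Migs and CD147KO-Migs (log2 fold changes of 1.97, 2.74 and 3.05). It was also 2-fold higher with CD147KO-Migs than with normo-Migs (1.07, interval 0.65 to 1.56). SLC7A8, the LAT2 light chain, fell with all Migs, from 469 reads with PBS to 90, 101 and 103 (-2.34, -2.41 and -2.19). SLC43A1, named after its values were seen, passed with hypo-Migs (1.09), fell just short with CD147KO-Migs (0.997) and had 0.74 with normo-Migs. It had 79, 132, 198 and 162 reads in the order PBS, normo-Migs, hypo-Migs and CD147KO-Migs, and no pair of Mig libraries differed 2-fold in it. SLC38A2 and SLC38A1, the glutamine carriers with the highest levels here, had 111.8 to 147.3 and 65.2 to 68.8 FPKM and did not pass 2-fold. The median of the list was -0.13, -0.19 and -0.17 on the log2 scale.

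Among 14 tested enzymes and carriers of lactate and pyruvate, PDK4, a kinase that switches off pyruvate dehydrogenase, rose from 824 reads with PBS to 13845, 18085 and 13540 with normo-Migs, hypo-Migs and CD147KO-Migs (log2 fold changes of 4.09, 4.24 and 4.01). PDK1, another such kinase, fell from 2061 reads to 859, 1145 and 857 (-1.24, -1.06 and -1.29), and LDHD, the mitochondrial D-lactate dehydrogenase, fell from 202 reads to 49, 99 and 79 (-1.98, -1.23 and -1.35). MPC1, a subunit of the mitochondrial pyruvate carrier named after its values were seen, rose with hypo-Migs (1.19) and CD147KO-Migs (1.08) and had 0.93 with normo-Migs. LDHA and PKM, the highest of this list, had 470.7 to 574.5 and 325.7 to 556.1 FPKM. PKM was lower than with PBS by log2 fold changes of -0.64, -0.74 and -0.76, short of 2-fold. The median of the list was 0.29, 0.25 and 0.20.

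Of 12 tested surface partners and trafficking genes of CD147, EPCAM, an epithelial adhesion molecule, rose (6.63, 16.8, 18.0 and 17.1 FPKM, log2 fold changes of 1.34, 1.45 and 1.37). SLC2A1, the glucose transporter GLUT1, fell from 93.1 FPKM with PBS to 39.1, 37.7 and 35.8 (-1.24, -1.29 and -1.37), and ITGA6, a laminin-binding integrin chain, from 35.4 to 16.4, 15.5 and 14.9 (-1.10, -1.18 and -1.24). ITGB1, its partner chain, was the highest of the list and had 99.1, 154.9, 146.3 and 141.0 FPKM. The median of the list was -0.10, 0.05 and -0.00 on the log2 scale.

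Of 5 tested matrix metalloproteinases known as targets of CD147 signalling, MMP2 rose from 6 reads with PBS to 3272, 3515 and 2836 with normo-Migs, hypo-Migs and CD147KO-Migs (log2 fold changes of 8.69, 8.59 and 8.45). MMP11 rose from 4 reads to 123, 160 and 166 (4.40, 4.58 and 4.79), and MMP14, named after its values were seen, passed 2-fold with normo-Migs (1.13, interval 0.35 to 2.17), on 16, 37, 32 and 27 reads, while the intervals between Mig libraries all held 0. MMP2 and MMP11 passed the filter on reads only through the Mig libraries, where they were high, so some rise was fixed in advance. MMP15, the highest of the list, had 58.9, 36.0, 33.4 and 34.2 FPKM and did not pass 2-fold. MMP2 differed far less among the Mig libraries than from PBS. Its log2 fold change was -0.13 (-0.20 to -0.06) between hypo-Migs and normo-Migs and 0.11 (0.04 to 0.18) between hypo-Migs and CD147KO-Migs. Between CD147KO-Migs and normo-Migs it was -0.25 (-0.32 to -0.17), and 9.31% of well-counted genes differed by at least 0.24 in that pair. The median of the list was 1.13, 0.72 and 0.79.

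Between Mig libraries, 2, 1 and 2 of the 65 related genes passed 2-fold in the pairs of hypo-Migs with normo-Migs, hypo-Migs with CD147KO-Migs, and CD147KO-Migs with normo-Migs, beside 9.39%, 9.13% and 9.46% of all genes tested. Besides SLC7A7, these were SLC16A11, with 6, 2, 13 and 12 reads, and PPIL6, both named after their values were seen and both thinly counted.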

How the data were processed

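RNA from 4 cultures of MHCC-97H cells was sequenced, 1 library per condition. The methods describe poly-T bead selection and random hexamers, whereas the labels name a SMARTER kit. The submitters' processing notes list CASAVA 1.8, fastp, HISAT2 2.0.5, featureCounts 1.5.0-p3 and hg38. The authors deposited raw counts per gene, not normalized, and FPKM, scaled by gene length and library size. Strand handling is not given in the sources used here. All 58735 genes had the coordinates of GENCODE 29, and genes were joined by identifier because 15 symbols differed between the tables. Gene positions are on GRCh38.

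From the counts, log2 fold changes used edgeR 4.0.16 TMM factors and a prior count of 2 in R 4.3.3, with exact intervals from scipy 1.17.1 in Python 3.11.15 and figures drawn by matplotlib 3.10.9. The filter kept the 19895 genes that reached 10 reads in any library. The procedure was tested on simulated data that held counting error only, with changes put into 1 library. Neither a spread between cultures nor a library that stands apart, as PBS does, was simulated. The study's test could not be fitted with 1 library per condition. A count of 0 allows 3 reads, 0.0745 to 0.0885 CPM. Alternatives concerned scaling (DESeq2 1.42.0 size factors among them), the filter, the prior count, FPKM, the fold and an assumed spread. The members, lists and rules were chosen with earlier results of these data known. Named related genes had at least 100 reads in 1 library and passed 2-fold in the same direction against PBS with all Migs (up to 4 per direction), or between any Mig libraries, or had the 2 highest mean FPKM of their list. A gene of a related list is not reported here and was left out of its counts.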

Additional observations from a re-analysis of the deposited data

How the results depend on the processing

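No call turned into a call in the opposite direction under the alternatives run, but some calls were lost and some differences near 0 changed sign, as given below. The count of the 10 genes past 2-fold with normo-Migs, 2, was 1 when scaled to total reads and 1 when scaled to reads on protein-coding genes, since SLC16A7 then fell just short. On log2(FPKM + 1), which understates low genes such as EMB and SLC16A7, it was 0 with normo-Migs, 0 under hypo-Migs and 0 under CD147KO-Migs. Of the 10 genes, 9 lay beyond counting error against PBS, and for CD147KO-Migs all 10 did, PPIB included, with DESeq2 size factors, total reads or protein-coding reads. With an assumed coefficient of variation of 0.1 between cultures, 3, 4 and 3 did with normo-Migs, hypo-Migs and CD147KO-Migs (BSG, EMB and SLC16A7, and SLC16A3 with hypo-Migs), and with 0.2 there were 2, 2 and 2 (EMB and SLC16A7). Between Mig libraries both assumed values left 0, 0 and 0. Shares of all genes under these assumed values are not given here, so these counts have no background beside them and do not set the 10 genes apart. Between CD147KO-Migs and normo-Migs, the count of 5 was 2 when scaled to total reads and 2 when scaled to protein-coding reads. The spread between cultures was not measured.

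Related genes past 2-fold numbered 17, 17 and 17 against PBS with normo-Migs, hypo-Migs and CD147KO-Migs. They were 10, 11 and 10 on log2(FPKM + 1), and 33, 32 and 34 with a 1.5-fold limit. With at least 10 reads asked of every library they were 11, 12 and 11. That filter leaves fewer related genes to count, so these numbers cannot be set directly against 17. Shares of all genes under the alternative settings of this section are not given here. The counts of 2, 1 and 2 between hypo-Migs and normo-Migs, hypo-Migs and CD147KO-Migs, and CD147KO-Migs and normo-Migs were 6, 4 and 6 with at least 1 read in 1 library, 0, 0 and 1 with 10 reads in every library, 0, 0 and 0 on log2(FPKM + 1), and 5, 2 and 3 with a 1.5-fold limit. Some differences near 0 changed sign with the scaling: those of EMB, NPTN, SLC16A1 and PPIA between CD147KO-Migs and normo-Migs, of PPIA and SLC3A2 between hypo-Migs and normo-Migs, and of PPIB between normo-Migs and PBS. No paired analysis was possible because each condition had 1 library, and for the same reason no library could be left out of a group.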
